A study of Homo sapiens with 6 samples.

Results

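Protein phosphatase 6 (PP6) is a serine/threonine phosphatase of the PP2A-like family. Its 7 subunit genes were followed in SKOV3 cells after knockdown of the lncRNA PVT1. They are PPP6C, which encodes the catalytic subunit, PPP6R1, PPP6R2 and PPP6R3, which encode the regulatory subunits with a SAPS domain, and ANKRD28, ANKRD44 and ANKRD52, which encode the ankyrin repeat subunits. The rows were selected by gene symbol, and 7 of the 59653 genes in the count table were members. The family was chosen from the results of the siPVT1 against siControl comparison, in which PPP6R1 ranked 14 of 19008 tested genes by p-value. The difference in PPP6R1 is therefore given as a description and not as a test, also where it is counted among genes past a threshold. The other 6 genes were included as partners of PPP6R1 in the complex and not for their own values.

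SKOV3 is an established human ovarian cancer cell line, and its genotype was labelled wildtype in all samples. There were 3 libraries from cells given a non-targeting control siRNA pool (siControl) and 3 from cells given a pool of siRNAs against PVT1 (siPVT1), all collected at 48 h. Every siPVT1 library came from 1 siRNA pool, so effects of lowering PVT1 and other effects of that pool cannot be told apart. The labels do not state whether replicates were separate cultures, so the p-values measure the spread between these samples, which may be technical.

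PP6 works as a trimer in cells. The catalytic subunit binds a SAPS-domain subunit, which in turn recruits an ankyrin repeat subunit, and the partners direct the enzyme to its substrates. PP6 is known for removing the activating phosphate of Aurora A kinase at the mitotic spindle, for acting on DNA-dependent protein kinase and condensin, and for restraining NF-kB and MAP kinase signalling. The 3 SAPS-domain subunits are encoded by separate genes, and each can bind PPP6C.

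Library totals were between 28383171 and 35059576 counts. The siPVT1 libraries differed from each other more than the siControl libraries did, with pairwise chi-square values divided by their degrees of freedom of 8.37 to 44.2 against 1.71 to 5.58, and the largest value lay between siPVT1 replicates 1 and 3. Normalized counts of PVT1, the targeted gene, were 3298, 4090 and 3377 in siControl and 2350, 2111 and 2062 in siPVT1, so that the groups did not overlap (−0.72 ± 0.097 (SE) on the log2 scale, edgeR adjusted p = 0.000342). Normalized counts are counts scaled to a common effective library size. Among epithelial and ovarian markers, KRT7, KRT8, KRT18, PAX8 and ERBB2 were at 896 normalized counts or more in each library and EPCAM was between 41.3 and 127. The thresholds used for calls were an adjusted p under 0.05 and a log2 fold change of 1 or more in either direction. Of the 7 markers in this list, 1 (KRT19) was past both thresholds, as higher, where 11.8% of all tested genes were. PAX8 was just under the fold threshold (0.9995 on the log2 scale, edgeR adjusted p = 3.33e-05). By the adjusted p alone 2 of the 7 (KRT7 and ERBB2) were lower and 4 higher, beside 28.4% and 29.5% of all tested genes. Of 7 fibroblast, endothelial and leukocyte markers, 5 were tested and 3 (COL1A1, PECAM1 and VWF) rose past both thresholds, where 11.8% of all tested genes did, while LUM was at −1.15 on the log2 scale without passing (edgeR adjusted p = 0.132). The summed level of the list was between 748 and 792 in siControl and between 1429 and 1826 in siPVT1. CD68, a leukocyte marker, was the largest part of that sum in siControl. Its mean was 584 normalized counts in siControl and 721 in siPVT1, and it did not pass (0.30 on the log2 scale, edgeR adjusted p = 0.111). PTPRC and DCN were at or below 2.02 normalized counts in every library, and the part of these markers in the results was not tested. In bulk samples, a change in how many cells express a gene and a change in its RNA per cell cannot be told apart.

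The SAPS-domain genes lie on different chromosomes of GRCh38. PPP6R1 (ENSG00000105063) is on the minus strand of chromosome 19 from 55229779 to 55259017, PPP6R2 (ENSG00000100239) on the plus strand of chromosome 22 from 50343304 to 50445090 and PPP6R3 (ENSG00000110075) on the plus strand of chromosome 11 from 68460731 to 68615334. The canonical transcript of each has 24 exons. The 250 bases before the RefSeq start of each gene (GRCh38.p14) are printed 5′ to 3′ because these 3 genes have like roles and PPP6R1 differed most in level. Capitals mark the GC box GGGCGG and the CCAAT box on either strand. The windows are chr19:55259018-55259267 (minus strand), chr22:50343077-50343326 (plus strand) and chr11:68460502-68460751 (plus strand).
PPP6R1: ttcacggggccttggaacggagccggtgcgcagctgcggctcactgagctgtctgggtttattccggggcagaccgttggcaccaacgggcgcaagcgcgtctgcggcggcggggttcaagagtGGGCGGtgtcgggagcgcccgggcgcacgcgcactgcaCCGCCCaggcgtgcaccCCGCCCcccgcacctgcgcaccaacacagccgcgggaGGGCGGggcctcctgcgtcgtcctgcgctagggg
PPP6R2: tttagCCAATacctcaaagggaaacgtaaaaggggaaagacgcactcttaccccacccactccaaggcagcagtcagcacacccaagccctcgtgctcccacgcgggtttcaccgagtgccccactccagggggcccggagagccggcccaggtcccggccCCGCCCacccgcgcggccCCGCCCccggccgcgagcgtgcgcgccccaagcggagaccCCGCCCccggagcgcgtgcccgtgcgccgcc
PPP6R3: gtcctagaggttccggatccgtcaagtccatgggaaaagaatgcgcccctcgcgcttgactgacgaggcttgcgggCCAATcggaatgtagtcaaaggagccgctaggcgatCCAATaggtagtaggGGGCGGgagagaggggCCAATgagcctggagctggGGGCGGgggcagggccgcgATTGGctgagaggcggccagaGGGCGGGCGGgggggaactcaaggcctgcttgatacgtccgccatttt
The PPP6R1 window held 4 GC boxes and 0 CCAAT boxes. That of PPP6R2 held 3 GC boxes and 1 CCAAT box, and that of PPP6R3 held 4 of each, with 2 of its GC boxes overlapping. Among 27305 promoters of the same length, 42.3% held a GC box and 33% a CCAAT box. The GC content of the 3 windows was 73.6%, 72.4% and 63.6%, against a median of 58.0% over all promoters. Other motifs were searched on both strands too. The E-box CACGTG (in 6.49% of promoters), the AP-1 motif TGACTCA (4.16%) and the CRE motif TGACGTCA (1.77%) were not among the letters of the window of any of the 7 subunit genes. The ANKRD28 window (chr3:15798185-15798434, minus strand) lies inside the annotated gene, which reaches 15859771, and so not before its outermost start. The ANKRD44 window (chr2:197310781-197311030, minus strand) also lies inside its gene, which reaches 197311173. That of PPP6C (chr9:125189804-125190053, minus strand) lies partly inside its gene, which reaches 125189939. The PPP6R2 and PPP6R3 windows run a little past the annotated gene starts.

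The siPVT1 level of PPP6R1 was 21.3% of its siControl level. PPP6R1, one of the SAPS-domain subunits, had 3897, 3677 and 3881 normalized counts in the siControl libraries (replicates 1 to 3 in order, as throughout) and 822, 824 and 793 in the siPVT1 libraries. The siPVT1 libraries lay close together and far below each siControl library. The mean was 3818 ± 122 with siControl and 813 ± 17.2 with siPVT1 (SD, n = 3 each), or −2.23 ± 0.060 (SE) on the log2 scale. The coefficient of variation of PPP6R1 was 3.20% in siControl and 2.12% in siPVT1, and a small spread is part of the p-value rank on which it was chosen. The log2 fold change was between −2.38 and −2.22 in all 12 alternative fits. These fits use the same libraries on which PPP6R1 was chosen, so this range is a description as well. Part of the PPP6R1 sequence is shared with ENSG00000276570, a lncRNA gene on the same strand, in which 6.55% of the 75-base words of PPP6R1 transcripts also occur. This lncRNA was not matched to a row of the table.

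The other SAPS-domain subunits did not pass the test. PPP6R3 had 4516, 4153 and 4458 normalized counts in siControl and 3507, 3902 and 4552 in siPVT1. The siPVT1 values spanned the siControl values, with replicate 3 above all siControl libraries and replicates 1 and 2 below them. The log2 fold change of PPP6R3 was −0.13 (95% interval −0.35 to 0.086, adjusted p = 0.264, from the quasi-likelihood test of edgeR after Benjamini-Hochberg adjustment over all genes). Without siPVT1 replicate 3 it was −0.26 and passed (adjusted p = 0.00282 from the same test). PPP6R3 shares 1.20% of its 75-base words with ENSG00000260808, an antisense lncRNA gene.

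PPP6R2 had 987, 951 and 969 normalized counts in siControl and 885, 912 and 999.8 in siPVT1. Here too siPVT1 replicate 3 was the highest library of all and the groups overlapped. The log2 fold change of PPP6R2 was −0.054 (95% interval −0.22 to 0.11, adjusted p = 0.546 from the same test). Without siPVT1 replicate 3 it was −0.12 (adjusted p = 0.0751 from the same test). In PPP6R2, 28.4% of the 75-base words also occur in SBF1, which lies on the opposite strand, and the strand setting of the counting is not given in the sources used here. SBF1 had 2221 ± 39.2 normalized counts with siControl and 2216 ± 105 with siPVT1 (SD, n = 3 each), or −0.0031 ± 0.060 (SE) on the log2 scale.

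**Figure D1:**
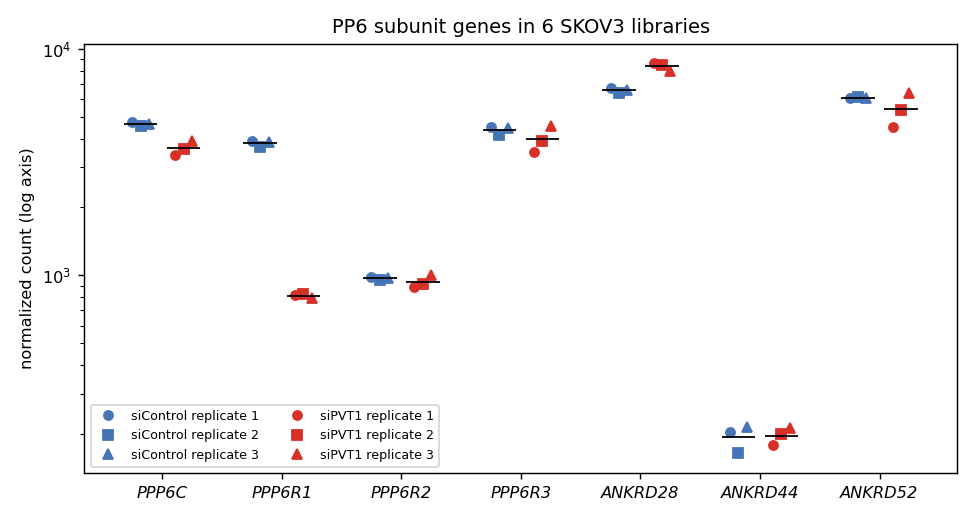
Normalized counts (log axis) of the 7 PP6 subunit genes in each library, with 1 point per library, the marker shape giving the replicate and a black bar giving the group mean. PPP6R1 is the gene with the widest gap between siControl (3677 to 3897) and siPVT1 (793 to 824), and siPVT1 replicate 3 is the highest siPVT1 library for 5 of the 7 genes.

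The make-up of the SAPS-domain counts differed between the groups. PPP6R1 made up 41.5%, 41.9% and 41.7% of the summed counts of PPP6R1, PPP6R2 and PPP6R3 in the siControl libraries and 15.8%, 14.6% and 12.5% in the siPVT1 libraries. The share of PPP6R3 was 47.7% ± 0.40 with siControl and 69.4% ± 2.25 with siPVT1 (SD, n = 3 each), and that of PPP6R2 was 10.6% ± 0.22 and 16.3% ± 0.62 (SD, n = 3 each). Because shares sum to a fixed total, those of PPP6R2 and PPP6R3 were higher although their normalized counts did not pass the test. The summed normalized counts of the 3 genes were 9163 ± 334 with siControl and 5732 ± 571 with siPVT1 (SD, n = 3 each). With counts divided by exon length, the PPP6R1 share was 44.9% ± 0.18 in siControl and 15.9% ± 1.74 in siPVT1 (SD, n = 3 each). No test was made of these shares, since PPP6R1 was picked on the same comparison.

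**Figure D2:**
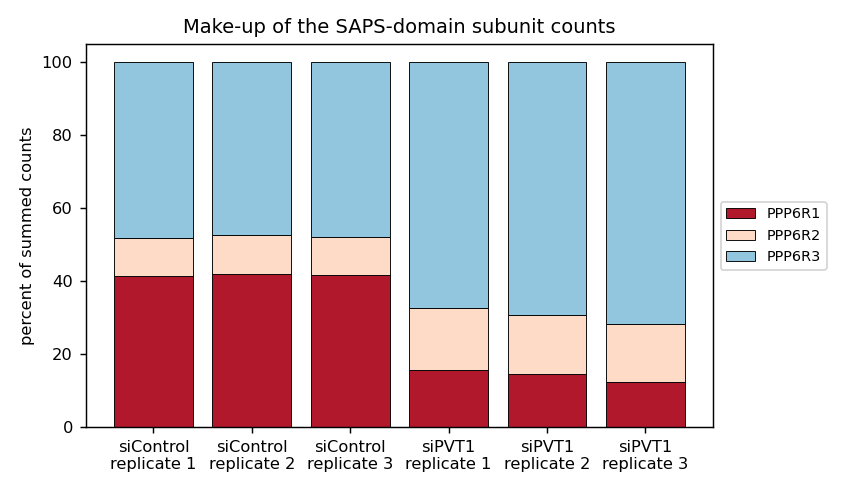
Percent of the summed counts of PPP6R1, PPP6R2 and PPP6R3 taken by each gene, with 1 bar per library. The PPP6R1 segment takes 41.5% to 41.9% of each siControl bar and 12.5% to 15.8% of each siPVT1 bar.

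PPP6C (ENSG00000119414, chromosome 9 from 125146573 to 125189939, minus strand), the catalytic subunit on which the activity of the complex depends, was lower in siPVT1. It had 4751, 4544 and 4656 normalized counts in siControl and 3378, 3614 and 3931 in siPVT1. No siPVT1 library reached the level of the lowest siControl library. The mean fell from 4650 ± 104 (SD, n = 3) to 3641 ± 278 (SD, n = 3), or to 78.3%, a difference of −0.35 ± 0.069 (SE) on the log2 scale with an edgeR adjusted p of 0.00256. Across the 12 alternative fits the log2 fold change of PPP6C stayed between −0.50 and −0.32, and its largest adjusted p was 0.0141, in edgeR without siControl replicate 1. None of the 75-base words of PPP6C transcripts occurred in a transcript of another gene.

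Of the ankyrin repeat subunits, ANKRD28 was higher in siPVT1. ANKRD28 (ENSG00000206560, chromosome 3 from 15667236 to 15859771, minus strand) had 6678, 6401 and 6537 normalized counts in siControl and 8599, 8509 and 7988 in siPVT1. Every siPVT1 library was above every siControl library, with replicate 3 nearest to them. The mean rose from 6539 ± 139 (SD, n = 3) to 8365 ± 330 (SD, n = 3), or 0.36 ± 0.056 (SE) on the log2 scale with an edgeR adjusted p of 0.000841. With scaling by the total count the log2 fold change of ANKRD28 was 0.21 (edgeR adjusted p = 0.00947). ANKRD28 shares 4.43% of its 75-base words with BTD, the biotinidase gene on the opposite strand. BTD also rose, with 611 ± 29.2 and 1017 ± 10.2 normalized counts in the 2 groups (SD, n = 3 each), which is 0.74 ± 0.069 (SE) on the log2 scale and a larger fold than that of ANKRD28. The part of BTD reads in the ANKRD28 value was not tested. Of the 11276 ANKRD28 exon bases, 8068 lie within the span of the BTD gene, its introns included.

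ANKRD52 (ENSG00000139645, chromosome 12 from 56237807 to 56258384, minus strand) did not pass the test. Its normalized counts were 6054, 6106 and 6040 in siControl and 4507, 5339 and 6397 in siPVT1. The siControl libraries lay within a narrow range (coefficient of variation 0.57%), and the siPVT1 libraries spread on both sides of it (17.5%). The log2 fold change of ANKRD52 was −0.16 (95% interval −0.43 to 0.098, edgeR adjusted p = 0.251), and without siPVT1 replicate 3 it was −0.32 and passed (adjusted p = 0.00241 from the same test).

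ANKRD44 (ENSG00000065413, chromosome 2 from 196967017 to 197311173, minus strand) was the subunit with the fewest counts, with 203, 164 and 214 normalized counts in siControl and 178, 199 and 211 in siPVT1. The groups overlapped. The log2 fold change of ANKRD44 was 0.019, and its 95% interval ran from −0.28 to 0.32 (edgeR adjusted p = 0.912). The summed normalized counts of the 3 ankyrin genes were 12799 ± 132 with siControl and 13976 ± 659 with siPVT1 (SD, n = 3 each), and ANKRD28 took 51.1% ± 0.56 of them in siControl and 60.0% ± 5.03 in siPVT1 (SD, n = 3 each).

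Past both thresholds, 1 of the 7 subunits was lower and 0 were higher, where 9.64% of all tested genes were lower and 11.8% higher. PPP6R1 was that gene, and it is the one on which the family was chosen. By the adjusted p alone 3 of 7 passed, where 57.9% of all tested genes did. These were PPP6R1, PPP6C and ANKRD28, with 2 lower and 1 higher, beside 28.4% and 29.5% of all tested genes. The groups did not overlap for the same 3 of 7 subunits, beside 65.6% of all tested genes, so that neither count exceeded its background. PPP6R1 is in both counts through the choice of the family, which leaves PPP6C and ANKRD28. In DESeq2 the same counts past both thresholds were 1 lower and 0 higher, and 3 subunits had an unadjusted p under 0.05 in edgeR. The median log2 fold change of the 7 genes was −0.13, beside 0.0014 over all genes tested. Scaling by the total count moved the median of all genes to −0.15. With it 6 of the 7 subunits, PPP6R1 among them, had an adjusted p under 0.05.

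**Figure D3:**
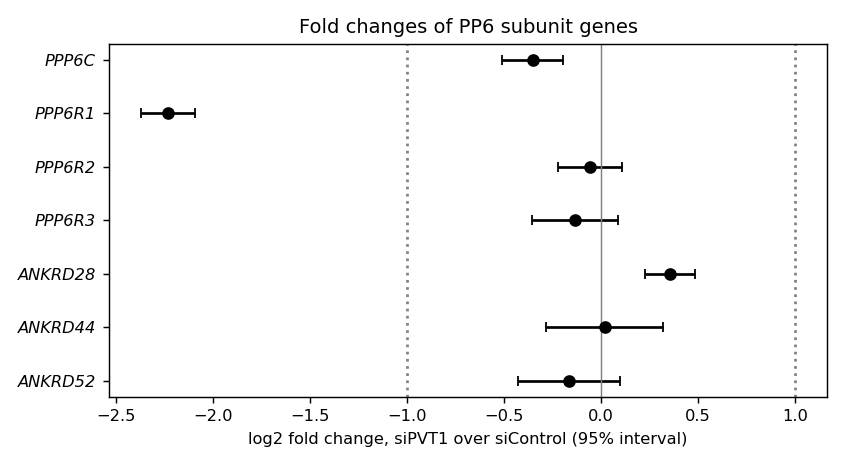
Log2 fold change of each PP6 subunit gene, siPVT1 over siControl, with its 95% interval from the quasi-likelihood fit, and dotted lines at −1 and 1. The PPP6R1 point is at −2.23, and its interval is a description, since the family was chosen on that gene. PPP6C and ANKRD28 lie on opposite sides of 0 at −0.35 and 0.36. The intervals of the other 4 genes include 0.

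siPVT1 replicates 1 and 3 lay on opposite sides of the siPVT1 mean for all 7 genes. Replicate 2 lay between them for all but PPP6R1. As log2 CPM deviations from that mean, replicates 1 to 3 were at −0.25, −0.0055 and 0.26 for ANKRD52. They were at −0.18, −0.023 and 0.20 for PPP6R3. Replicate 3 was the highest siPVT1 library for PPP6C, PPP6R2, PPP6R3, ANKRD44 and ANKRD52. That is 5 of 7 subunits, where 41.5% of all tested genes were highest in that library. Without replicate 3, 5 of 7 subunits, PPP6R1 among them, had an adjusted p under 0.05, in place of 3. So did 11944 of the 18556 genes tested in that fit. With replicate 1 left out instead, 3 of 7 passed. PPP6R3 was then at −0.064 and ANKRD52 at −0.062 on the log2 scale (edgeR adjusted p = 0.506 and 0.541). The coefficient of variation in siPVT1 was 17.5% for ANKRD52, 13.2% for PPP6R3, 7.63% for PPP6C, 6.41% for PPP6R2 and 3.95% for ANKRD28. The median was 7.87% over the 8333 genes with a mean of at least 500 normalized counts. ANKRD44, at 8.56%, had means of 194 in siControl and 196 in siPVT1 and is not among those genes.

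The levels in siControl were compared per length as CPM per kb of exon sequence. These libraries are 1 arm of the comparison on which the family was chosen, so the place of PPP6R1 in the order is a description. PPP6C had the highest level, 33.6 ± 0.75 (SD, n = 3), and its libraries did not overlap those of the next gene. ANKRD28 (18.6 ± 0.40) and PPP6R1 (18.6 ± 0.59) followed and overlapped each other. ANKRD52 was at 17.6 ± 0.10 and PPP6R3 at 16.9 ± 0.75, all as SD with n = 3, and the libraries of PPP6R1, ANKRD52 and PPP6R3 did not overlap in this order.

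PPP6R2 (5.82 ± 0.11) and ANKRD44 (0.48 ± 0.067) were the lowest on this scale (SD, n = 3 each). In siPVT1 the level of PPP6R1 per kb was 3.95 ± 0.084 (SD, n = 3), below that of PPP6R2 at 5.60 ± 0.36 (SD, n = 3), so that their order was reversed. The level of PPP6C in siPVT1 was 26.3 ± 2.01 (SD, n = 3). The order rests on the length used. With the longest transcript of each gene in place of all exons, PPP6R1 stood second in siControl at 30.8, after PPP6C at 34.3 and before PPP6R3 at 27.7 and ANKRD28 at 27.1.

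The question of whether other phosphatases of the same family differed was addressed with lists of related genes. PP4, the closest relative of PP6 together with PP2A, has 6 subunit genes in the list. Of these, 0 were past both thresholds in edgeR and 0 in DESeq2, while 4 had an unadjusted p under 0.05, and by the adjusted p alone 2 were lower and 2 higher. Over all 19008 tested genes, 21.5% were past both thresholds, 11873 had an unadjusted p under 0.05, and by the adjusted p alone 28.4% were lower and 29.5% higher, which is the background for this list and those that follow. PPP4R4, a regulatory subunit, had 130, 123 and 140 normalized counts in siControl and 253, 269 and 251 in siPVT1, or 0.97 ± 0.10 (SE) on the log2 scale with an edgeR adjusted p of 8.46e-05. The catalytic subunits PPP4C, PPP2CA and PPP2CB were named after their values were seen, as the relatives of PPP6C. PPP4C was higher (0.52 on the log2 scale, adjusted p = 0.000204), PPP2CA lower (−0.68, adjusted p = 0.000538) and PPP2CB lower (−0.27, adjusted p = 0.00412), all from the same edgeR test.

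The PP2A list held 19 catalytic, scaffold and regulatory genes, of which 18 were tested. By the adjusted p alone 5 were lower and 7 higher (12 of 18, beside 57.9% of all tested genes), and 1 was past both thresholds (beside 21.5%). This was PPP2R5B, a B56-type regulatory subunit, which rose in normalized counts from 212 ± 13.4 to 476 ± 46.5 (SD, n = 3 each), which is 1.17 ± 0.10 (SE) on the log2 scale. Without siControl replicate 3, PPP4R4 was past both thresholds as well, at 1.01 on the log2 scale. Among 5 factors that assemble or methylate the PP2A-like catalytic subunits, 0 were past both thresholds in edgeR and 0 in DESeq2 (beside 21.5% of all tested genes in edgeR), and 3 had an unadjusted p under 0.05 (beside 11873 of 19008). PTPA, an activator of PP2A, had the smallest p-value of them, at 0.26 ± 0.065 (SE) on the log2 scale. TIPRL, which binds PP2A-like catalytic subunits including that of PP6 and was named after its values were seen, was at −0.20 (edgeR adjusted p = 0.0377). It did not pass the test without siControl replicate 1 (0.119), siControl replicate 3 (0.126) or siPVT1 replicate 2 (0.0633), all adjusted p from edgeR.

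Of 9 catalytic genes of other PPP phosphatases, 7 were tested. None was past both thresholds (0 in edgeR, 0 in DESeq2, 4 with an unadjusted p under 0.05), and 3 of 7 were higher by the adjusted p alone, beside 29.5% of all tested genes. PPP3CB, a catalytic subunit of calcineurin, rose in normalized counts from 1441 ± 19.5 to 2628 ± 90.7 (SD, n = 3 each), which is 0.87 ± 0.058 (SE) on the log2 scale. The median log2 fold changes of the PP4, PP2A, assembly and other catalytic lists were −0.058, 0.027, 0.11 and 0.18. In these 4 lists the lowest log2 fold change was −0.68, for PPP2CA, beside −2.23 for PPP6R1. PPP6R1 was chosen on this comparison and these lists were not, so the 2 values are no test of a difference between the families.

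**Figure D4:**
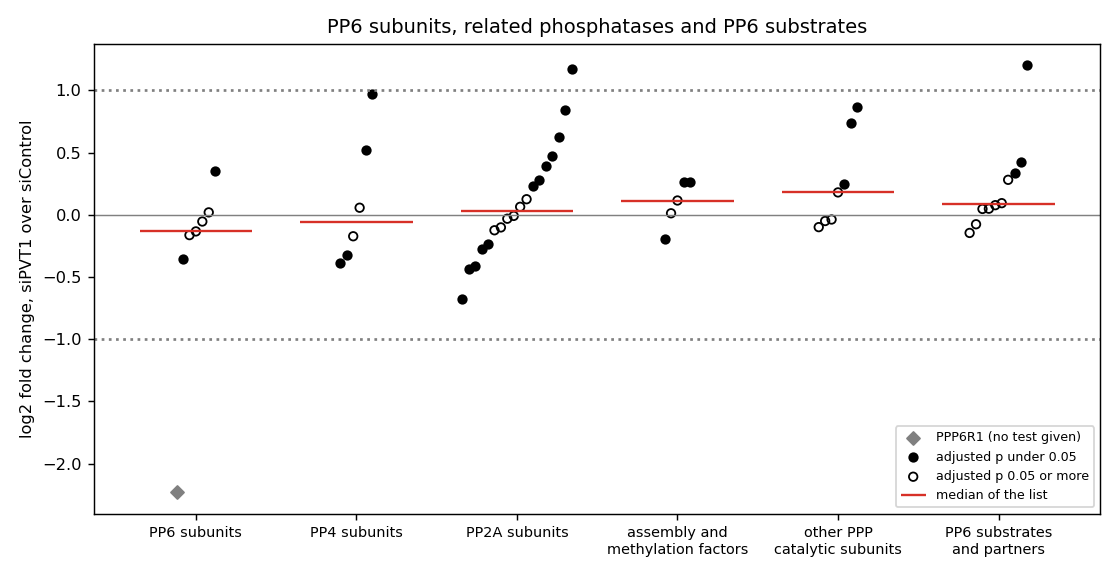
Log2 fold change of each tested gene of the PP6, PP4 and PP2A subunits, the assembly and methylation factors, the other PPP catalytic subunits and the PP6 substrates and partners, with filled circles for an adjusted p under 0.05, a grey diamond for PPP6R1 and red lines for list medians. PPP6R1, on which the family was chosen, is the only point below −1. PPP2R5B (1.17) and MAP2K1 (1.20) are the points above 1.

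Among 10 genes of PP6 substrates and binding partners, all were tested, 3 were higher by the adjusted p alone (beside 29.5% of all tested genes) and 0 lower (beside 28.4%), and their median log2 fold change was 0.085. MAP2K1, which encodes the kinase MEK1, was past both thresholds. It had 2143, 2004 and 2162 normalized counts in siControl and 4951, 4604 and 4952 in siPVT1, or 1.20 ± 0.062 (SE) on the log2 scale with an edgeR adjusted p of 3.13e-06. NFKBIE, which encodes an inhibitor of NF-kB that binds PPP6R1, did not pass the test (0.049 on the log2 scale, 95% interval −0.14 to 0.23).

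AURKA, the Aurora A kinase gene, had 3187, 2900 and 3229 normalized counts in siControl and 3444, 3897 and 5179 in siPVT1, and was named after its values were seen. Its highest siPVT1 library was replicate 3, as for most of the PP6 subunits. TPX2, the activator of Aurora A, and NCAPG, a condensin subunit, showed the same library as the highest, at 10685 and 3417 normalized counts against 7003 to 7784 and 1994 to 2357 in the other siPVT1 libraries. TPX2 and NCAPG were also named after their values were seen. In the same list, replicate 3 was the lowest siPVT1 library for MOB1B, NFKBIE and MAP2K2 and the highest for the rest. Over all tested genes, 41.5% were highest in that library. Whether these genes and the PP6 subunits vary together was not tested. The log2 fold change of AURKA was 0.43 (SE 0.14, edgeR adjusted p = 0.0281). TPX2 and NCAPG, with 95% intervals of −0.043 to 0.60 and −0.32 to 0.48, did not pass the test. AURKA did not pass the test with any 1 siControl library or siPVT1 replicate 2 left out (edgeR adjusted p from 0.0525 to 0.0991). Without siPVT1 replicate 3 the log2 fold change of AURKA was 0.23 (edgeR adjusted p = 0.0101). Without siPVT1 replicate 1, TPX2 passed at 0.39 on the log2 scale (edgeR adjusted p = 0.0244), and without siPVT1 replicate 3 it was at 0.065 (edgeR adjusted p = 0.317). Without siPVT1 replicate 3, NCAPG passed in the opposite direction at −0.19 (edgeR adjusted p = 0.0358).

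The genes around PPP6R1 on chromosome 19 differed in both directions. Of the 5 protein-coding genes on each side, 9 of 10 had a row in the table and 7 were tested. HSPBP1, which encodes a co-chaperone of HSP70, ends 3205 bases from the start of PPP6R1 and lies on the same strand. It had 748, 721 and 774 normalized counts in siControl and 332, 378 and 343 in siPVT1, or −1.09 ± 0.082 (SE) on the log2 scale with an edgeR adjusted p of 1.71e-05. On the other side, TMEM86B, a lysoplasmalogenase gene 994 bases beyond the end of PPP6R1, had between 15.2 and 28.3 normalized counts and did not pass the test (−0.16, 95% interval −0.91 to 0.59).

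The other neighbours past both thresholds were higher. BRSK1, a kinase gene next to HSPBP1, rose in normalized counts from 35.7 ± 6.41 to 203 ± 20.9 (SD, n = 3 each), which is 2.50 ± 0.17 (SE) on the log2 scale. PTPRH, a receptor tyrosine phosphatase gene, and KMT5C, a histone methyltransferase gene, had log2 fold changes of 2.16 (SE 0.23) and 1.05 (SE 0.13). In all, 4 of 7 tested neighbours were past both thresholds, 1 lower and 3 higher, beside 21.5% of all tested genes in either direction. KMT5C was under the fold threshold with scaling by the total count (0.90) and without siPVT1 replicate 1 (0.94). DNAAF3, a dynein assembly factor gene named after its values were seen, was past both thresholds with filterByExpr (1.10) and without siPVT1 replicate 3 (1.36).

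**Figure D5:**
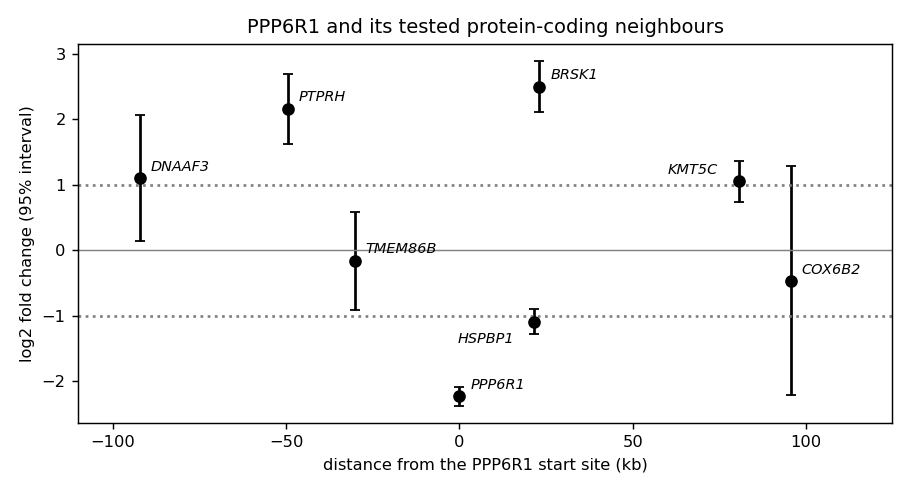
Log2 fold change with its 95% interval for PPP6R1 and its 7 tested protein-coding neighbours, against the distance of each start site from that of PPP6R1 in kb. HSPBP1 (−1.09) is the neighbour below −1, and BRSK1 (2.50) and PTPRH (2.16) lie above 2. The interval of PPP6R1 is a description, since the family was chosen on that gene.

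The genes with the pattern most like that of PPP6R1 over the 6 libraries were found by Euclidean distance of log2 CPM, centred on siControl. They were H2BC8 (distance 0.12), SLC35A4 (0.13), H2BC18 (0.23), AC026369.1 (0.23) and LCP1 (0.24). H2BC8 and H2BC18 are histone H2B genes, whose values are uncertain because near-identical copies can share their reads, SLC35A4 encodes a nucleotide sugar transporter family member and LCP1 encodes plastin-2. AC026369.1 had 7 raw counts in each siControl library and 0 in each siPVT1 library, so that its place rests on the prior count of 2. The log2 fold changes of the other 4 genes ranged from −2.32 to −2.13. Values near that of PPP6R1 follow from the choice by distance, and PPP6R1 was itself chosen on this comparison.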

How the data were processed

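The members and gene lists were chosen with earlier results of these data known. RNA of 6 samples was made into mRNA libraries and sequenced single-end by the authors. According to the submitters' processing notes and the methods, reads were aligned with STAR 2.7.3a to the GENCODE transcriptome of GRCh38.p13 and counted with Salmon 0.14.1. The authors deposited unnormalized estimated counts, rounded to whole numbers, for 59653 gene symbols. Salmon divides reads between similar transcripts by estimation.

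The 19008 genes that reached 5 normalized counts in 3 or more libraries were tested with the quasi-likelihood test of edgeR 4.0.16 (R 4.3.3) after TMM normalization over all genes, with the siRNA as the only term. Normalized counts are counts divided by the effective library size over its mean. The thresholds were a Benjamini-Hochberg adjusted p of 0.05 and a log2 fold change of 1 in either direction. The SE is the size of the log2 fold change over the square root of F, and 95% intervals use t quantiles. The functions were tested on simulated data first. Positions, exon lengths and the 75-base words came from GENCODE v44 (GRCh38), and promoters of 7 of 7 subunits from RefSeq (GRCh38.p14). Protein sequences were not used here.

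Named genes were the 7 subunits, PVT1, list members past both thresholds (at most 3 per direction, by p) or else that with the smallest p, neighbours of PPP6R1 past both thresholds or among the 2 nearest on each side, and the 5 genes nearest in pattern. Genes named outside this rule were chosen after their values were seen. Alternatives were DESeq2 1.42.0, its size factors, scaling by the total count, no filter, filterByExpr, a replicate block, a test against a 2-fold change, other lengths and each library left out. For neighbours, substrates, similar genes and other single genes they were added after seeing the data.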

Additional observations from a re-analysis of the deposited data

How the results depend on the processing

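Of 84 alternative fits of the 7 subunits, 80 kept the direction. PPP6C and ANKRD28 kept the direction and the side of the adjusted p threshold in all of theirs. PPP6R1, whose difference in these libraries chose the family, kept its direction. Scaling by the total count put 6 subunits, PPP6R1 among them, under the adjusted p threshold. It gave log2 fold changes of −0.20 for PPP6R2, −0.28 for PPP6R3 and −0.31 for ANKRD52, now past that threshold, and turned ANKRD44 to −0.13. It moved the median of all genes to −0.15, and with it 43.8% of the genes past both thresholds were higher, in place of 55.1%. A test against a 2-fold change gave 1976 genes in place of 4081, 0 of the related phosphatases in place of 1 and 2 neighbours in place of 4; it is stricter by construction.

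With 1 library left out, the log2 fold change of ANKRD44 ran from −0.085 to 0.094 and that of PPP6R2 from −0.12 to −0.033. That of PPP6R3 ran from −0.26 to −0.064 and that of ANKRD52 from −0.32 to −0.062. The number of subunits under the adjusted p threshold, PPP6R1 included, ran from 3 to 5. The related phosphatases past both thresholds ran from 1 to 2. The second related phosphatase gene came without siControl replicate 3 and was PPP4R4. The log2 fold changes of NCAPG (−0.19 to 0.22), SBF1 (−0.057 to 0.0055) and TMEM86B (−0.34 to 0.15) changed sign among these fits. Depth limits ANKRD44 most, at 160 to 232 raw counts per library. Scaling by the total count turned NCAPG to −0.073 and NFKBIE to −0.10, and with it AURKA (0.28) and PTPA (0.11) did not pass the test. Dividing by exon length moved the PPP6R1 share in siControl to 44.9%. The longest transcript in place of all exons moved the siControl levels to 30.8 for PPP6R1, 7.60 for PPP6R2, 27.7 for PPP6R3, 27.1 for ANKRD28, 0.86 for ANKRD44 and 22.4 for ANKRD52.

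Replicate numbers are shared by the groups, but deviations of same-numbered libraries did not correlate (−0.041, 0.038 and 0.0037), so the numbers were not taken to pair them. With the replicate number as a block, 3924 genes were past both thresholds (3862 of them shared with the 4081), PPP6R1 was at −2.23 and 1 subunit was past both thresholds. TIPRL did not pass the test with the block (edgeR adjusted p = 0.0632) or, in a fit of its own, with no filter on low counts (0.0648).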
